A study of Homo sapiens with 4 samples.

Results

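The genes described here are 9 genes of the RAS-MAPK pathway, BRAF, NF1, DUSP4, DUSP5, DUSP6, SPRY2, SPRY4, SPRED1 and ETV5, measured by RNA sequencing in 2 breast cancer cell lines. The members are named genes, and every transcript of the deposited count table that belongs to 1 of them was taken. These are 14 transcripts, and the transcript of highest mean count stood for its gene. The 9 genes are among 34616 genes that could be named in the table. All 9 reached the minimum mean of 50 counts used throughout, as did 15469 of the named genes.

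The study compared MDA-MB-231, a triple-negative human breast cancer line called the parental line below, with MDA-MB-231-LM2 (LM2), a more aggressive subline selected for growth in the lung, to find RNAs that differ with metastatic behaviour. The labels list 4 samples, 2 per cell line, but the table holds 1 column of counts per cell line, with totals of 130689252 and 128985870 counts. No difference below therefore has a replicate check, and no test was made. MDA-MB-231 was grown in L-15 medium with 10% fetal bovine serum under air, and LM2 in DMEM with 10% fetal bovine serum under air with CO2, with no other treatment. Medium, gas and cell line cannot be told apart. LM2 derives from MDA-MB-231, so both come from 1 tumour, and the counts carry no genotype, so the mutations that BRAF and NF1 are known to have in MDA-MB-231 were not examined here.

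Genes listed as markers of MDA-MB-231, taken as a basal-like, mesenchymal line, were expressed in both columns. The list includes the keratins KRT8 and KRT18, and by itself it does not settle the state of the cells. VIM, CD44, AXL, CAV1, KRT8 and KRT18 had 19.0 to 951 RPKM, which is reads per kilobase of transcript, scaled to the column total. ESR1 and PGR had 2 to 8 counts, and CDH1 had 13 counts in the parental line and 0 in LM2. GATA3 stayed at 95 counts or fewer, and EPCAM had 1.61 and 1.60 RPKM. ERBB2, also listed as low in a line of this kind, was clearly present, with 2966 and 1922 counts, or 4.91 and 3.22 RPKM. Of the markers of other cell types, the leukocyte gene PTPRC had 8 and 7 counts, the endothelial gene PECAM1 48 and 343, and the fibroblast gene COL1A1 209 and 532, none above 0.696 RPKM. Their part in the results below was not tested.

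RAS proteins are switches that, when bound to GTP, recruit the kinase BRAF and its relatives to the membrane. The signal then passes through the MEK kinases to ERK, which acts on cytoplasmic and nuclear targets. NF1 turns RAS off by speeding GTP hydrolysis. ERK also drives its own restraint, because DUSP4, DUSP5, DUSP6, the Sprouty genes and ETV5 are transcribed when it is active, and their RNA levels are widely read as a record of pathway output. In MDA-MB-231 the pathway is known to be switched on by mutation.

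3 stretches of DNA are shown because the results refer back to them. The first is the exon that separates the 2 longest NF1 transcripts of the table, at chr17:31252938-31253000 on the + strand of GRCh38. It is a coding exon in GENCODE release 29, it is spliced in or left out as a whole, and it lies in the part of NF1 that acts on RAS. The others are the 250 bases before a RefSeq start of SPRY2 and of SPRY4, the Sprouty pair whose levels differed in opposite directions. The SPRY2 stretch is chr13:80341127-80341376 and the SPRY4 stretch is chr5:142324248-142324497, both on the - strand of GRCh38.p14. Capitals mark the searched motifs, which are the ETS core CCGGAA and the GC box GGGCGG, on either strand.
NF1 alternative exon: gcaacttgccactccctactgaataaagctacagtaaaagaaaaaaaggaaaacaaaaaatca
SPRY2 upstream of the start: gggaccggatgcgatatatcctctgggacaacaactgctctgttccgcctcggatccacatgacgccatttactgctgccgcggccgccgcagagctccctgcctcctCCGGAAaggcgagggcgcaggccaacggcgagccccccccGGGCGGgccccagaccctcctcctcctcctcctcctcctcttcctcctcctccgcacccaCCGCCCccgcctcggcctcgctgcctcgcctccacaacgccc
SPRY4 upstream of the start: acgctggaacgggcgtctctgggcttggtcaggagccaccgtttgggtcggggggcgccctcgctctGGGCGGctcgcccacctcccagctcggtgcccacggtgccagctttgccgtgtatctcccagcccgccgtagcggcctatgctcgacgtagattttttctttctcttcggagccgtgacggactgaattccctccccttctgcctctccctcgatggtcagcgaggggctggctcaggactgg

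The SPRY2 stretch held 1 ETS core, at -142 to -137 from the start, and GC boxes at -102 to -97 and -42 to -37. The SPRY4 stretch held 1 GC box, at -183 to -178, and no ETS core. Of 35116 promoter stretches of this length in the RefSeq table, 14.5% held the ETS core and 42.6% the GC box, so each is common. Both strands were searched, and no matches overlapped. RefSeq starts were also found for BRAF, DUSP6, NF1 and SPRED1. The NF1 stretch held the cAMP response element TGACGTCA at -166 to -159, which 1.65% of promoter stretches hold, and the SPRED1 stretch held a GC box at -31 to -26. No searched stretch held the AP-1 site TGANTCA (6.57% of all), the CIC sites TGAATGAA (1.40%) or TGAATGGA (0.832%), or the CArG box (1.16%). DUSP4, DUSP5 and ETV5 had no stretch to search, so nothing is said of their promoters. BRAF, DUSP6 and the other starts of SPRY2 held none of these letters, which says nothing of the factors. The DUSP6 stretch, at 89352502-89352751 on the - strand, lies inside an exon of the GENCODE model, whose start is at 89353271. The bases before that model start were therefore not searched. The other SPRY2 stretches likewise lie downstream of the SPRY2 model start given next. GENCODE places the start of SPRY2 at 80340951 and those of SPRY4 at 142325001 and 142325040. The stretches do not share a start with those models. On the - strand the SPRY2 stretch lies upstream of its model start, whereas the SPRY4 stretch lies downstream of both of its model starts, inside the gene. The stretches therefore differ in place, and their motifs cannot be compared as those of 2 promoters. Part of the SPRY4 stretch lies in an exon of a shorter noncoding SPRY4 transcript.

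The 9 members differed from each other more than between the cell lines. Levels per length ran from 0.711 RPKM for NF1 in LM2 to 63.7 RPKM for DUSP6 in the parental line. None of the 9 was over 2-fold higher or lower in LM2, where 4.60% of all named genes at the minimum were higher by that much and 6.86% lower. ETV5 and SPRY4 were over 1.5-fold higher in LM2, as were 10.7% of all genes, and SPRY2 and NF1 were over 1.5-fold lower, as were 15.4%. The counting intervals of NF1 and SPRY2 hold 1.5-fold, and with 1 added to each RPKM their log2 ratios of -0.28 and -0.57 are short of it, as is the -0.54 of NF1 with 0.1 added. The interval of the ratio, from counting error alone, excluded equal levels for 8 of the 9 members and for 75.3% of all genes, so a ratio apart from 1 at this depth is the common case. In log2, the median ratio of LM2 over the parental line was 0.03 for the members, with quartiles of -0.48 and 0.42. Over all genes the median was -0.00 and the quartiles were -0.37 and 0.29. A lower value in a column may reflect fewer cells with the RNA or less of it per cell, which cannot be told apart in bulk RNA.

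**Figure D1:**
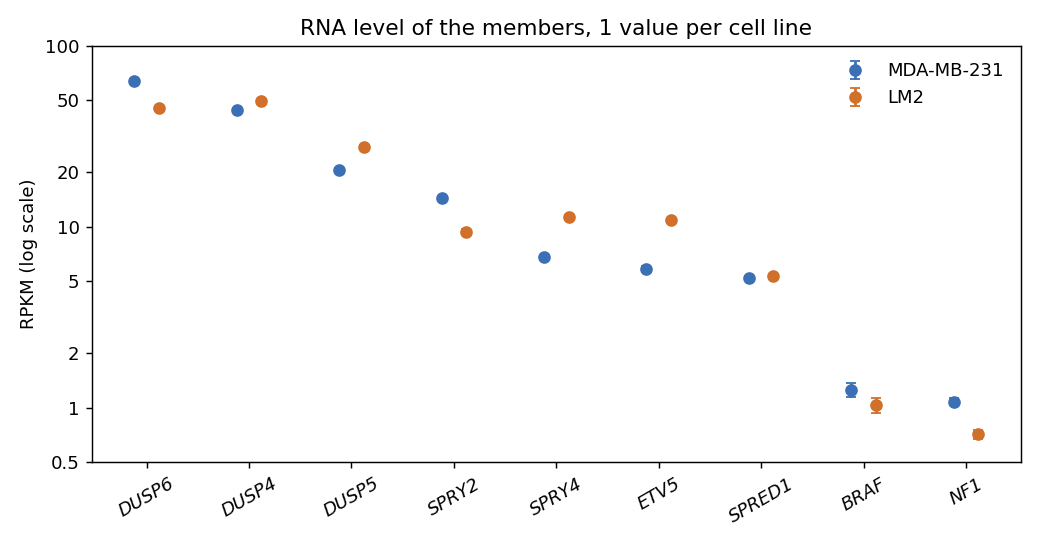
Level of each member in RPKM (log axis) in MDA-MB-231 (blue) and LM2 (orange), 1 value per cell line, with bars for the 95% counting interval, mostly hidden by the points. The DUSP genes lie at the top, between 20.7 and 63.7 RPKM, and BRAF and NF1 at the bottom, between 0.711 and 1.26 RPKM.

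**Figure D2:**
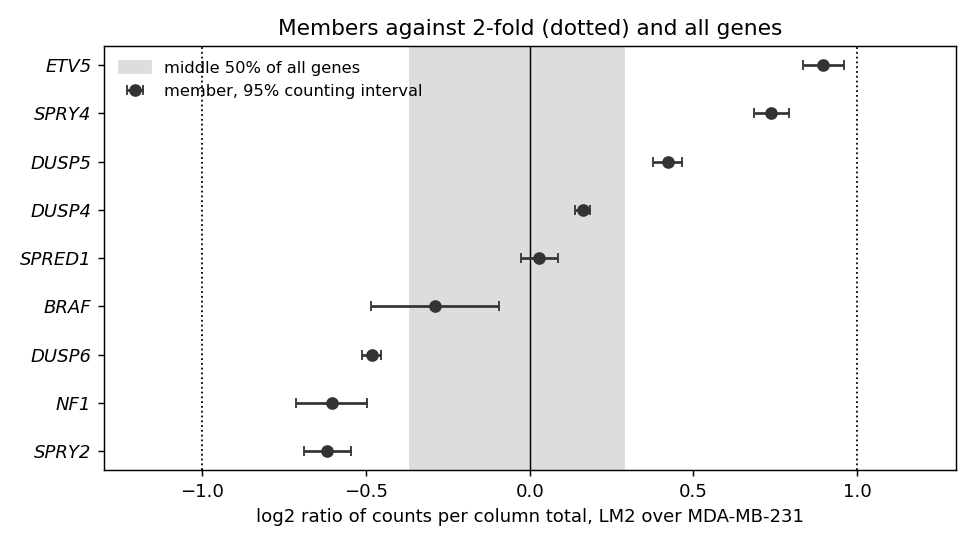
Log2 ratio of LM2 over the parental line for each member, as points with 95% counting intervals, against the quartiles of all genes (grey band) and 2-fold (dotted lines). ETV5 and SPRY4 lie at 0.90 and 0.74, SPRY2 and NF1 at -0.62 and -0.61, and no member passes 2-fold.

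BRAF, the RAF kinase that passes the signal from RAS to MEK, was a low-level RNA in both lines. Its transcript NM_004333 (chromosome 7) had 485 counts in the parental line and 392 in LM2, or 1.26 and 1.03 RPKM. These levels lie at percentiles 28.4 and 26.1 of the named genes at the minimum. BRAF was 1.22-fold lower in LM2, with an interval from 1.07 to 1.40. The listed BRAF transcript has 2946 bases, whereas the GENCODE model matched to it has 6458, so much of the longer model lies outside what was counted.

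NF1, the tumour suppressor neurofibromin that inactivates RAS, had the lowest level per length of the 9 in both lines. NM_001042492 (chromosome 17) had 1757 counts in the parental line and 1140 in LM2, or 1.08 and 0.711 RPKM. NF1 was 1.52-fold lower in LM2 (1.41 to 1.64), a ratio at percentile 14.9 of all genes. Within each line NF1 stood at 0.859 of the BRAF level in the parental line and at 0.690 in LM2. That ratio of ratios is 0.803 (0.689 to 0.935) and does not depend on the scaling of the columns.

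The NF1 transcripts shared this direction. NM_000267, which lacks the exon printed above, had 1753 and 1137 counts, and the short transcript NM_001128147 had 306 and 208. Their log2 ratios were -0.61 and -0.54, but the transcripts share reads and are not replicates. The 63 bases of the alternative exon accounted for a difference of 4 counts in the parental line and 3 in LM2. Per kilobase this is 63.5 (17.3 to 163) and 47.6 (9.82 to 139), against 142 and 92.0 for the rest of the transcript. Both intervals hold the level of the rest. The exon is known to weaken the action of NF1 on RAS when included. Its use cannot be read from these values, because a difference between transcripts that share reads does not measure it. How reads shared by transcripts were assigned was not stated, and these differences are not direct counts of isoforms.

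NF1 lay in a stretch of chromosome 17 where most genes were lower in LM2. Of its 30 nearest genes, 15 on each side, 27 had a ratio below 1, and their median log2 ratio was -0.47 against -0.61 for NF1. EVI2A, a gene inside an intron of NF1 on the opposite strand, was 1.35-fold lower, with 2732 and 1995 counts for its leading transcript. The part of these neighbours in the NF1 value was not tested. For BRAF the median of the 30 neighbours was -0.17, with 18 below 0.

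DUSP4, DUSP5 and DUSP6 encode phosphatases that remove phosphate from ERK. DUSP6 acts in the cytoplasm, and DUSP4 and DUSP5 in the nucleus. They had the highest levels of the 9 members in both lines, and the mix of the 3 differed between the lines.

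DUSP6 was the leading member in the parental line and second in LM2. NM_001946 (chromosome 12) had 23477 counts in the parental line and 16591 in LM2, or 63.7 and 45.6 RPKM, and was 1.40-fold lower in LM2 (1.37 to 1.42). The shorter NM_022652, which lacks a whole exon of 438 bases, had 19060 and 13476 counts and the same log2 ratio of -0.48. The 438 bases accounted for 10084 counts per kilobase in the parental line and 7112 in LM2, against 8002 and 5657 in the shorter transcript, a higher value in both lines. As for NF1, these are differences between the counts of transcripts that share reads, not direct counts of the exon. In GENCODE, 37.3% of the exon bases of the DUSP6 model, which at 4400 bases is longer than the listed transcript of 2820, lie under the antisense RNA AC024909.2. The strand setting of the counting was not stated, and reads of that RNA cannot be told apart from those of DUSP6.

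DUSP4 took the first place in LM2. NM_001394 had 32575 counts in the parental line and 35950 in LM2, or 44.3 and 49.6 RPKM, which is 1.12-fold higher in LM2 (1.10 to 1.14). NM_057158, with 6436 bases against 5621, had fewer counts, 24926 and 27954, with a log2 ratio of 0.18 against 0.16. Each of these transcripts has exons of its own, 823 bases in NM_001394 and 705 and 1015 bases in NM_057158. The 2 lines did not differ in which DUSP4 transcript had more counts.

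DUSP5 was the third member in level in both lines. NM_004419 (chromosome 10) had 6837 counts in the parental line and 9033 in LM2, or 20.7 and 27.7 RPKM, and was 1.34-fold higher in LM2 (1.30 to 1.38). The processed copy DUSP5P1 had 143 and 91 counts, far below DUSP5 and in the opposite direction.

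Set against each other within a line, where scaling cancels, DUSP4 stood at 0.696 of DUSP6 in the parental line and at 1.09 in LM2, which is 1.56 times as high (1.52 to 1.60). DUSP5 stood at 0.325 and 0.607 of DUSP6, 1.87 times as high in LM2 (1.80 to 1.94). The summed level of the 3 was 128.7 RPKM in the parental line and 122.9 in LM2. Cytoplasmic DUSP6 held 49.5% of that sum in the parental line and 37.1% in LM2, DUSP4 held 34.4% and 40.3%, and DUSP5 16.1% and 22.5%. These pairs and sums, like those of NF1 with BRAF and of the Sprouty genes, were chosen after the values were seen.

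**Figure D3:**
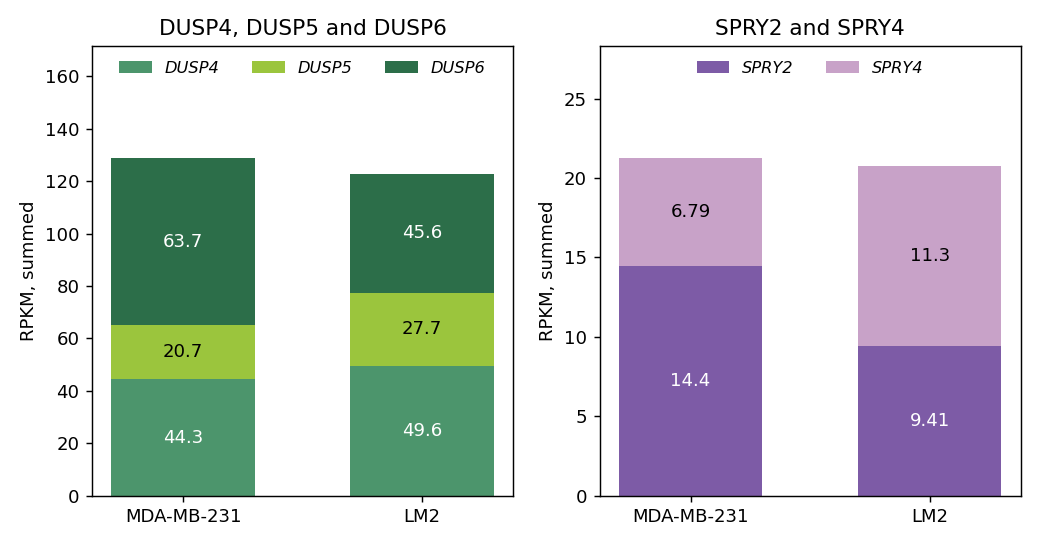
Summed level in RPKM of DUSP4, DUSP5 and DUSP6 (left) and of SPRY2 and SPRY4 (right) in each cell line, with the value of each gene in its segment and both axes starting at 0. The sums are close, 128.7 and 122.9 RPKM on the left and 21.2 and 20.7 RPKM on the right, while the shares differ.

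Over the whole family of 10 dual-specificity MAPK phosphatases, 7 reached the minimum of 50 counts. None was over 2-fold higher (4.60% over all genes) and 1 was over 2-fold lower in LM2 (6.86% over all genes). That gene was DUSP10, which acts on the stress kinases JNK and p38, with 2555 counts in the parental line and 1113 in LM2, 2.27-fold lower (2.11 to 2.43). The immediate early gene DUSP1 was 1.23-fold lower (1.17 to 1.29), and the cytoplasmic ERK phosphatase DUSP7 was 1.36-fold lower (1.27 to 1.45). DUSP16 was 1.18-fold higher (1.09 to 1.29). DUSP2, DUSP8 and DUSP9 stayed under the minimum, with at most 63 counts. The median log2 ratio of the 7 was -0.29, against -0.00 over all genes.

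The Sprouty proteins SPRY2 and SPRY4 restrain signalling from growth factor receptors to RAS. Their levels differed in opposite directions. SPRY2 (NM_005842, chromosome 13) had 3983 counts in the parental line and 2562 in LM2, or 14.4 and 9.41 RPKM, and was 1.53-fold lower in LM2 (1.46 to 1.61). SPRY4 (NM_030964, chromosome 5) had 4430 and 7291 counts, or 6.79 and 11.3 RPKM, and was 1.67-fold higher (1.61 to 1.73).

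The leading Sprouty gene was therefore SPRY2 in the parental line and SPRY4 in LM2. SPRY4 stood at 0.470 of SPRY2 in the parental line and at 1.20 in LM2, 2.56 times as high (2.40 to 2.72), the largest of the 4 within-line ratios computed. Their summed level was 21.2 RPKM in the parental line and 20.7 in LM2, with SPRY2 at 68.0% and 45.4% of it. The stretches printed above, each before a RefSeq start, belong to these genes, and that of SPRY4 lies inside the gene models used here. The second SPRY4 transcript, NM_001127496, lacks an exon of 51 bases and had 4413 and 7268 counts, with a log2 ratio of 0.74 like the first. Per kilobase the 51 bases accounted for 333 counts (194 to 534) in the parental line and 451 (286 to 677) in LM2. The second transcript had 893 and 1471, above both intervals. As for NF1 and DUSP6, these are differences between transcripts that share reads, not direct counts of the exon. The antisense gene SPRY4-AS1, whose exons do not overlap the SPRY4 model, had at most 76 counts in the parental line and 146 in LM2 for any of its transcripts. That leading transcript was 1.95-fold higher in LM2 (1.47 to 2.60), the direction of SPRY4.

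SPRED1, a relative of the Sproutys that brings NF1 to the membrane, had close levels in the lines. NM_152594 (chromosome 15) had 4954 counts in the parental line and 4991 in LM2, or 5.22 and 5.33 RPKM. The log2 ratio of 0.03 had an interval from -0.03 to 0.09, which holds equal levels. SPRED1 thus stood above its partner NF1 per length in both lines.

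Of the 7 Sprouty and Spred genes, 6 reached the minimum, and none was over 2-fold apart, beside 4.60% higher and 6.86% lower over all genes. SPRY1 had 1258 and 1157 counts and SPRED2 1139 and 1045, with intervals that hold equal levels. SPRED3 was 1.44-fold lower in LM2 (1.23 to 1.68), and SPRY3 had 0 counts in both columns, where up to 3 counts would be allowed. The median log2 ratio of the 6 was -0.10.

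ETV5, an ETS transcription factor of the PEA3 group that is induced by ERK signalling, had the largest ratio of the 9. NM_004454 (chromosome 3) had 3125 counts in the parental line and 5741 in LM2, or 5.83 and 10.9 RPKM, and was 1.86-fold higher in LM2 (1.78 to 1.94). Its ratio lay at percentile 94.4 of all genes. In LM2 its level could not be told from that of SPRY4 by counting error, the only neighbours in the order of levels with overlapping intervals in either line.

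ETV5 overlaps its neighbour DGKG, a diacylglycerol kinase gene read from the same strand, over 164 exon bases, 3.99% of the ETV5 model. DGKG had 7 counts in the parental line and 328 in LM2. Its part in the ETV5 value was not tested, and how reads in the shared bases were assigned was not stated. Of the 30 nearest genes of ETV5, 22 were above 0, with a median log2 ratio of 0.26, and 2 exceeded ETV5, DGKG at 5.57 and ST6GAL1 at 1.45. The antisense gene ETV5-AS1 had 46 and 54 counts.

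The 2 other PEA3 factors were not alike. ETV1 was 1.91-fold higher in LM2 (1.83 to 1.99), with 3662 and 6898 counts, close to the ratio of ETV5. ETV4 was 1.08-fold higher (1.02 to 1.14), with 2206 and 2345 counts. The other ETS genes were nearer to equal than ETV1 and ETV5, with ETS1 1.14-fold higher (1.11 to 1.17), ERF 1.18-fold higher (1.11 to 1.25), ELK3 1.08-fold higher (1.02 to 1.14), ELK4 1.15-fold lower (1.10 to 1.20) and ETS2 1.34-fold lower (1.26 to 1.43). ELK1 and CIC, the repressor that ERK removes from the PEA3 genes, had intervals that hold equal levels. None of the 10 genes of this list was over 2-fold apart, beside 4.60% higher and 6.86% lower over all genes, and their median log2 ratio was 0.11.

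The order of the members by level was DUSP6, DUSP4, DUSP5, SPRY2, SPRY4, ETV5, SPRED1, BRAF and NF1 in the parental line. In LM2 it was DUSP4, DUSP6, DUSP5, SPRY4, ETV5, SPRY2, SPRED1, BRAF and NF1. DUSP6 and DUSP4 thus stood in reverse order, and SPRY2 stood below both SPRY4 and ETV5 in LM2, while SPRED1, BRAF and NF1 held the same places. The 7 feedback and output genes, that is all members but BRAF and NF1, summed to 161.0 RPKM in the parental line and 159.8 in LM2. Their total per length was therefore close in the lines, but DUSP6, DUSP4 and DUSP5 made up most of it. These held 39.6%, 27.5% and 12.9% in the parental line and 28.5%, 31.0% and 17.3% in LM2. The 3 of the 7 that were over 1.5-fold apart, SPRY2, SPRY4 and ETV5, held small shares. These were 8.97%, 4.22% and 3.62% in the parental line and 5.89%, 7.09% and 6.79% in LM2. The total therefore says little of these 3. By ratio the order was ETV5, SPRY4, DUSP5, DUSP4, SPRED1, BRAF, DUSP6, NF1 and SPRY2, where the intervals of BRAF and DUSP6, of DUSP6 and NF1, and of NF1 and SPRY2 overlap.

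The neighbourhoods of the remaining members were nearer to 0 than those of NF1 and ETV5. Median log2 ratios of the 30 nearest genes were 0.01 for DUSP4, 0.15 for DUSP5, -0.17 for DUSP6, 0.06 for SPRY2, 0.01 for SPRY4 and -0.05 for SPRED1. SPRY2 and SPRY4 lay toward the edge of their neighbours, with 3 and 2 of 30 genes further out in the same direction. The 2 beyond SPRY4 were its antisense gene SPRY4-AS1 at 0.96 and PCDH12 at 0.92. By contrast, 11 of 30 lay further out than SPRED1 and 10 further out than NF1.

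**Figure D4:**
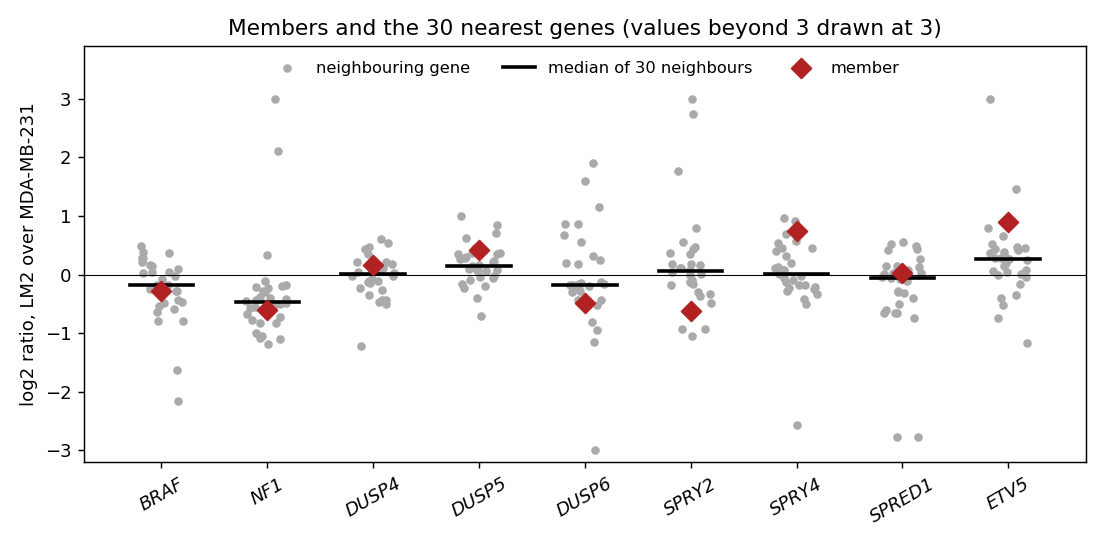
Log2 ratio of LM2 over the parental line of each member (diamond) and of the 30 nearest named genes at or above the minimum mean count (grey points, values beyond 3 drawn at 3), with their median as a bar. The neighbours of NF1 centre at -0.47 and those of ETV5 at 0.26, while those of SPRY2 and SPRY4 centre at 0.06 and 0.01.

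The wider pathway was described by 8 lists with 86 genes in all, the members included. Of these, 79 reached the minimum, 72 were within 2-fold, 4 lower beyond it and 3 higher, with a median log2 ratio of 0.02. Beside 6.86% lower and 4.60% higher over all genes, these counts are near the background. Upstream, the 14 RAS proteins and adaptors were all within 2-fold, with a median of 0.08. The adaptor GAB2 was 1.76-fold higher in LM2 (1.65 to 1.87), and SOS1, which loads RAS with GTP, was 1.62-fold lower, with 1790 and 1089 counts. Among the 11 RAF, MEK and ERK kinases and scaffolds that reached the minimum, with a median of 0.06, the scaffold IQGAP1 was 1.83-fold higher (1.80 to 1.86) and the MEK scaffold LAMTOR3 1.43-fold higher (1.32 to 1.56).

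The lowest list median was that of the RAS GTPase-activating proteins, the class of NF1. Of 10 genes, 8 reached the minimum. Their median log2 ratio, NF1 included, was -0.59, with NF1 at -0.61. Over all genes the median was -0.00 and the lower quartile -0.37. The list was chosen with earlier results of these data known. DAB2IP, a GTPase-activating protein lost in several cancers, was the only 1 over 2-fold lower, beside 6.86% over all genes. It had 2585 counts in the parental line and 1069 in LM2, 2.39-fold (2.22 to 2.57). None of the 8 was over 2-fold higher (4.60% over all genes), and the highest had a log2 ratio of 0.13.

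The list of other ERK output genes had the widest range of the 8, from -3.03 to 3.60 in log2. Of 16, 12 were within 2-fold, 3 higher beyond it (4.60% over all genes) and 1 lower (6.86%), with a median of 0.04. EREG, the EGF receptor ligand epiregulin, had 759 counts in the parental line and 9076 in LM2, 12.1-fold higher (11.2 to 13.1). AREG, the related ligand amphiregulin, had 431 and 52 counts, 8.18-fold lower (6.12 to 11.1), a value that is uncertain because hg19 holds a near-identical copy of the gene. The sphingosine kinase gene SPHK1 was 3.60-fold higher (3.34 to 3.89), with 876 and 3115 counts, and the immediate early factor EGR1 was 2.61-fold higher (2.04 to 3.37), with 90 and 232 counts. No feedback gene among the members had a ratio as far from 1 as any of these 4. Of the 7 effector and downstream kinases, with a median of -0.15, the ERK-activated kinase RPS6KA3 was 2.10-fold lower, with 4805 and 2257 counts and an interval that holds 2-fold.

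**Figure D5:**
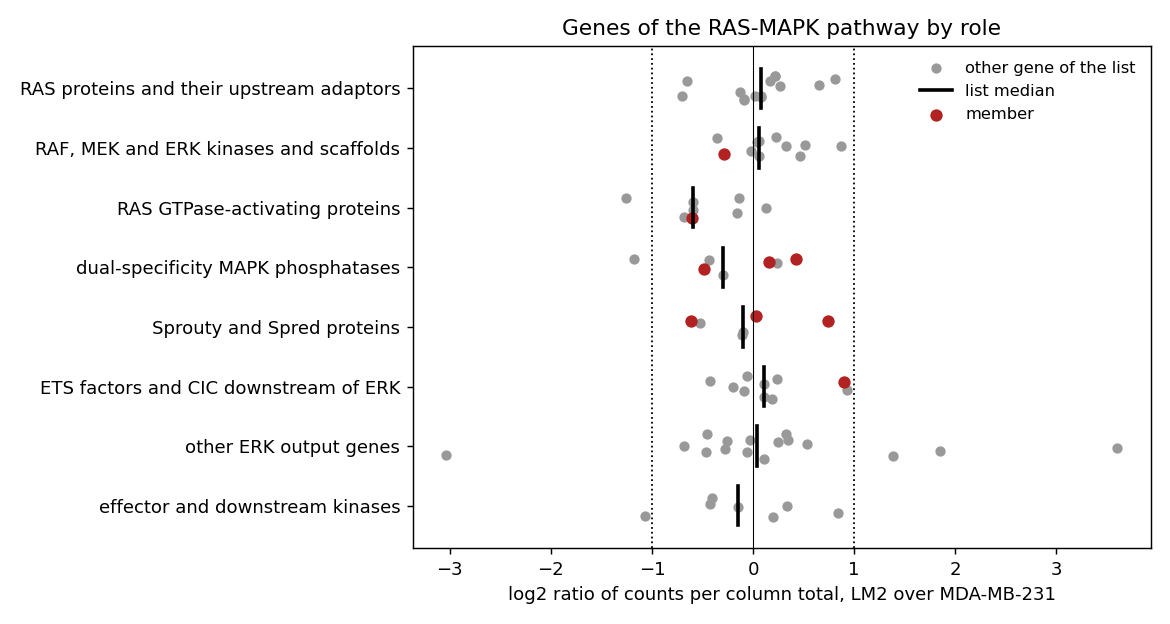
Log2 ratio of LM2 over the parental line of the 79 pathway genes at the minimum mean count, by role, with members in red, other genes in grey, the list median as a bar and 2-fold as dotted lines. The members lie within 2-fold, and the genes beyond it include EREG at 3.60 and AREG at -3.03.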

How the data were processed

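Trizol RNA of the parental line MDA-MB-231 and of its subline LM2 was sequenced. Per the labels, bcl2fastq and TopHat2 (2.0.13) were used with the hg19 build (GRCh37). How reads were counted, with which annotation and strand setting, and whether 1 library or 2 went into a column, is not given in the sources. The authors deposited whole-number counts per transcript, which were used unchanged. The deposited RPKM follows from count, listed length and column total. Of 65423 transcripts, 33714 NM_, 6795 NR_ and 21822 ENST transcripts were paired with symbols through RefSeq (GRCh38.p14) and GENCODE release 29. Where the text gives coordinates they are those of GRCh38, and none of hg19 were converted.

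The ratio of a gene is its LM2 count over its parental count, corrected for the column totals, and its 95% interval is the exact Clopper-Pearson one. Intervals of levels are exact Poisson intervals. Both cover counting error only. At 1 kilobase, 131 parental counts or 129 LM2 counts make an RPKM of 1. Genes were counted beyond 2-fold from a mean of 50 counts. The edgeR and DESeq2 tests set for separate samples were impossible with a single column for each line, and both tools (versions 4.0.16 and 1.42.0) gave scaling factors only. Scripts ran in R 4.3.3 and Python 3.11.15 with scipy 1.17.1, and the ratio step was checked on simulated counts.

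The members and lists were chosen with earlier results of these data known. Named are all members, every list gene beyond 2-fold and otherwise the 2 furthest from equal in a list, the families of the members, and the markers. Overlapping and antisense genes and nearest genes are named beside the member they touch, and were chosen after their values were seen.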

Additional observations from a re-analysis of the deposited data

How the results depend on the processing

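No paired analysis was possible because the table holds 1 column per cell line. For the same reason the edgeR and DESeq2 tests over samples and the fits without each replicate were not run. All 9 members kept the direction of their ratio under all 8 alternatives of scaling, transcript choice and pseudocount, and TMM, upper-quartile and DESeq2 factors shifted log2 ratios by 0.01, 0.00 and -0.00. With log2(RPKM + 1) the values were nearer to 0, -0.15 for BRAF, -0.28 for NF1, -0.57 for SPRY2, 0.66 for SPRY4 and 0.80 for ETV5, since the added 1 weighs most at low RPKM. NF1 and SPRY2 were then under 1.5-fold lower, as was NF1 with log2(RPKM + 0.1), at -0.54. With the longest transcript DUSP4 had 0.18. At a threshold of 1.5-fold, 2 members were higher and 2 lower in LM2, against 0 and 0 at 2-fold. With no minimum count, 2018 of all genes were over 2-fold higher and 2419 lower, and at a minimum mean of 200 counts 388 and 648, against 712 and 1061. With no minimum, 2 RAS GTPase-activating proteins and 3 dual-specificity phosphatases were over 2-fold lower, each against 1, the added genes being low-count ones. Among the members, depth limits the ratio of BRAF most, with 485 and 392 counts. The NF1 exon values rest on differences of 4 and 3 counts between transcripts that share reads.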
